A study of Mus musculus with 8 samples.

Results

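The genes described here are 9 genes that T cells use to read and record the strength of receptor signals: the transcription factor genes Egr1, Egr2 and Egr3, the nuclear receptor genes Nr4a1, Nr4a2 and Nr4a3, and the surface protein genes Cd69, Cd5 and Cd28. They were taken by name, and all 9 were found among the 15653 genes of the deposited matrix. Their levels were followed in double-negative (DN) thymocytes, the immature T cells of the thymus that carry neither CD4 nor CD8, by 5′ single-cell RNA sequencing with matched T cell receptor sequencing. The 4 groups were KI DN4, WT DN4, KI DN3 and WT DN3. KI mice carry the GSK3B Ser389Ala knock-in, in which a serine of the kinase GSK3β is replaced by alanine, and WT mice are C57BL/6J. DN4 cells were sorted as CD44-negative and CD25-negative and DN3 cells as CD44-negative and CD25-positive, both after magnetic depletion of CD4, CD8, CD11b, MHC class II and kappa chain positive cells. Age, sex, the number of animals and the background strain of the KI mice are not given in the sources used here. With a single expression library and a single receptor library for every group, groups could not be tested against each other. All intervals are 95% intervals of counting error and say nothing of the spread between mice. Those of CPM and of CPM ratios take each UMI as independent, so they leave out the spread between cells too.

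A signal through the pre-T cell receptor or a mature receptor activates the Ras and MAP kinase pathway and raises calcium. Within a short time this induces the Egr genes, whose zinc finger proteins bind GC-rich DNA and help DN3 cells past β-selection, and the Nr4a genes, which encode orphan nuclear receptors and whose level follows the strength of the signal in T cells. CD69 is an early activation antigen that holds T cells in the tissue, CD5 is an inhibitory receptor that is set by the strength of earlier signals, and CD28 is the costimulatory receptor for B7 ligands.

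The DNA around the start sites of the Nr4a genes and Egr2 is shown because these genes are induced through sites there for CREB and serum response factor. It was also chosen because the Nr4a genes were lower in KI on library totals, though Nr4a1 was higher in KI in cluster 5. The part of these sites in the KI values was not tested. RefSeq windows of 300 bases (GRCm38.p6), 250 before the start site and 50 after it, were found for 5 of the 9 genes. Those printed are for Nr4a1 (chr15:101266596-101266895, plus strand), Nr4a2 (chr2:57123954-57124253, minus strand), Nr4a3 (chr4:48045055-48045354, plus strand) and Egr2 (chr10:67537620-67537919, plus strand). Capitals mark the short cAMP response element TGACG, read on either strand, and, in Egr2, the CArG box of serum response factor.

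Nr4a1: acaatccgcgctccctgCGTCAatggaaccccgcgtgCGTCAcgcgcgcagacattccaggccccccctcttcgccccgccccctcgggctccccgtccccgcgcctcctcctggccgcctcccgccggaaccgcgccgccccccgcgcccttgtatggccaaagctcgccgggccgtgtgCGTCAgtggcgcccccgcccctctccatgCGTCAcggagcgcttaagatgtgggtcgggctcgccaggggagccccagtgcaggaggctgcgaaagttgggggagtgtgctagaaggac
Nr4a2: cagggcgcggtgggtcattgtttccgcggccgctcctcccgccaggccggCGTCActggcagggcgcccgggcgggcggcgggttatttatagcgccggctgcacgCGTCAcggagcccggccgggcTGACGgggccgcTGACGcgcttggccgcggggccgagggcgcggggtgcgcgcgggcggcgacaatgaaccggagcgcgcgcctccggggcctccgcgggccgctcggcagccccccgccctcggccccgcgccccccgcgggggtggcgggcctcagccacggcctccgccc
Nr4a3: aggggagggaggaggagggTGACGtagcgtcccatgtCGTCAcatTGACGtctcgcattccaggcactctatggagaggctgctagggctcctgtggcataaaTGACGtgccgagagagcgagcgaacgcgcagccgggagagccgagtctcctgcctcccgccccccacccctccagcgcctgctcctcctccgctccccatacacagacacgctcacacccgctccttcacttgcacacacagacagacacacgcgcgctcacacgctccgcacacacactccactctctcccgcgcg
Egr2: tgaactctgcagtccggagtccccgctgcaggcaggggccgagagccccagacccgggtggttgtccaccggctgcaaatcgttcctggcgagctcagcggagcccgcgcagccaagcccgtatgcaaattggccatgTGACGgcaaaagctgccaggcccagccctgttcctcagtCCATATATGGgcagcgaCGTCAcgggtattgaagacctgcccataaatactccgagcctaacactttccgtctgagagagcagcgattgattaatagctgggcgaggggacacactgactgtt

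The windows of Nr4a1, Nr4a2 and Nr4a3 held 4 matches to TGACG each, which 0.232% of 32817 RefSeq windows of this length did (4 or more), whereas 20.8% held at least 1. The start site of the Nr4a3 window lies 74 bases from the nearest GENCODE start. Egr2 has 5 RefSeq windows, of which only the printed 1 was searched. It held 2 such matches and a CArG box, a motif found in 1.63% of windows. The window of Cd5 held none of either. The full palindrome TGACGTCA, found in 1.79% of windows and counted with its overlapping short matches, was in none of the 5 windows searched. Nor was the Nr4a response element AAAGGTCA, found in 1.51%. The Egr site GCGNGGGCG, found in 5.56%, had 1 match in Nr4a1 and 1 in Nr4a2. A match is a string of letters and does not show that a factor binds there. Egr1, Egr3, Cd69 and Cd28 had no entry. On GRCm38 (GENCODE vM21), the protein-coding genes Egr3, Cd69 and Cd28 lie at chr14:70077203-70082614, chr6:129267325-129275436 and chr1:60716800-60773359, and Cd5 at chr19:10717116-10739002.

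The libraries held 2577 KI DN4, 1477 WT DN4, 3298 KI DN3 and 2885 WT DN3 cells, with 16411164 to 30402236 unique molecular identifiers (UMIs, each counting 1 RNA molecule) in all. The median cell had 9345 UMIs in KI DN4, 7121 in WT DN4, 5495 in KI DN3 and 5927 in WT DN3. Il2ra, which encodes CD25, was at 425 CPM (UMIs scaled to a library total of 1000000) in KI DN3 and 478 in WT DN3, against 3.75 in KI DN4 and 3.84 in WT DN4, and Cd4 and Cd8a were at 11.1 CPM or below in all 4. Of the cell barcodes, 54 occurred in more than 1 library, which touches 109 of 10237 cells. The knock-in changes 1 residue, which these counts do not read, so the genotype labels were not checked.

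The deposited clusters are used by number, with the names their markers allow. Clusters 0 and 1 were pre-selection DN3-like and divided the genotypes between them, so they were joined; they held 74.9% of KI DN3 and 78.2% of WT DN3 cells. Cluster 6 held 8.79% of KI DN3 and 8.42% of WT DN3 cells, most of them with a productive TRB (β chain) contig. Clusters 3 and 4 were β-selected cycling-like and large, with a median of 19985 UMIs per cell; they made up 1160 of 2577 KI DN4 and 493 of 1477 WT DN4 cells. Cluster 2, γδ T-like but with mature αβ markers at a like level (1265 CPM summed over the γδ list, 1221 over the αβ list), held 37.9% of KI DN4 and 40.3% of WT DN4 cells. Cluster 5 held 12.7% of KI DN4 and 21.9% of WT DN4 cells. Of its cells, 79.6% in KI and 80.2% in WT had both a TRB and a TRA contig, while the list of NK, NKT and innate markers summed to 1266 CPM, so it keeps its number.

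Egr1, an immediate early gene, was at 34.2 CPM in KI DN4 and 69.6 in WT DN4, and at 39.5 in KI DN3 and 65.3 in WT DN3. The 2 KI libraries were below the 2 WT libraries, with no overlap of their intervals. Cells with an Egr1 UMI, after every cell was thinned to 2000 UMIs, made up 7.90% (exact binomial interval 6.87 to 9.04) of KI DN4 and 14.4% (12.6 to 16.3) of WT DN4, and 9.83% (8.83 to 10.9) of KI DN3 and 15.3% (14.0 to 16.7) of WT DN3. Unthinned shares were 20.1%, 30.1%, 23.3% and 34.3% in the same order. Clusters 3 and 4 had some of the lowest thinned shares, between 2.16% and 3.24%, where the median cell had 19436 to 20938 UMIs. The share was also low in cluster 6 of KI DN3, at 7 of 290 cells, against 17 of 242 in WT DN3. Shares this low may be background, which was not measured. The level of Egr1 differed more between clusters than between libraries. It was 328 CPM in cluster 5, 81.9 in clusters 0 and 1, 79.6 in cluster 2, 51.1 in cluster 7, 27.2 in cluster 6 and 10.8 in clusters 3 and 4, and the neighbours 81.9 and 79.6 had overlapping Poisson intervals. The small cluster 8, 88 shallow cells with a median of 1664.5 UMIs, had 528 CPM.

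Within clusters, Egr1 stood lower in KI cells in some kinds of cell and level in others. In cluster 2 it was at 55.6 CPM in KI DN4 and 112 in WT DN4, a log2 ratio of −1.01 (−1.24 to −0.79). In clusters 0 and 1 it was at 65.2 CPM in KI DN3 and 98.4 in WT DN3 (−0.59, −0.72 to −0.47), and in cluster 6 at 19.8 and 32.3 (−0.71, −1.22 to −0.21). In cluster 5, where Egr1 was most abundant among the larger clusters, it was at 327 CPM in KI DN4 and 329 in WT DN4, a log2 ratio of −0.01 (−0.19 to 0.17), which leaves room for a difference of up to the ends of that interval. In clusters 3 and 4 of DN4 it was at or under 10.1 CPM in both genotypes, below the floor of 20 CPM used to count genes.

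Egr2 and Egr3, the other family members, were scarce. Egr2 was at 3.03 CPM in KI DN4 and 6.52 in WT DN4, and at 0.823 in KI DN3 and 0.662 in WT DN3. Among clusters of at least 50 cells in a library, only cluster 5 took Egr2 past 20 CPM, with 42.4 CPM (60 UMIs) in KI DN4 and 32.6 (54 UMIs) in WT DN4, a log2 ratio of 0.38 (−0.18 to 0.94). In cluster 2 it was at 4.49 CPM in KI DN4 and 12.6 in WT DN4. Egr3 gave 19 UMIs in KI DN4, 22 in WT DN4, 1 in KI DN3 and 11 in WT DN3, too few for its order across libraries to be read. In the DN4 sort 65.2% of Egr2 UMIs in KI and 50.5% in WT came from cluster 5. It had 0 UMIs in clusters 3 and 4 of KI DN4, which allows up to 0.132 CPM, and was at 0.192 CPM there in WT DN4, below cluster 6 of DN3, at 2.88 CPM in KI and 2.91 in WT.

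**Figure D1:**
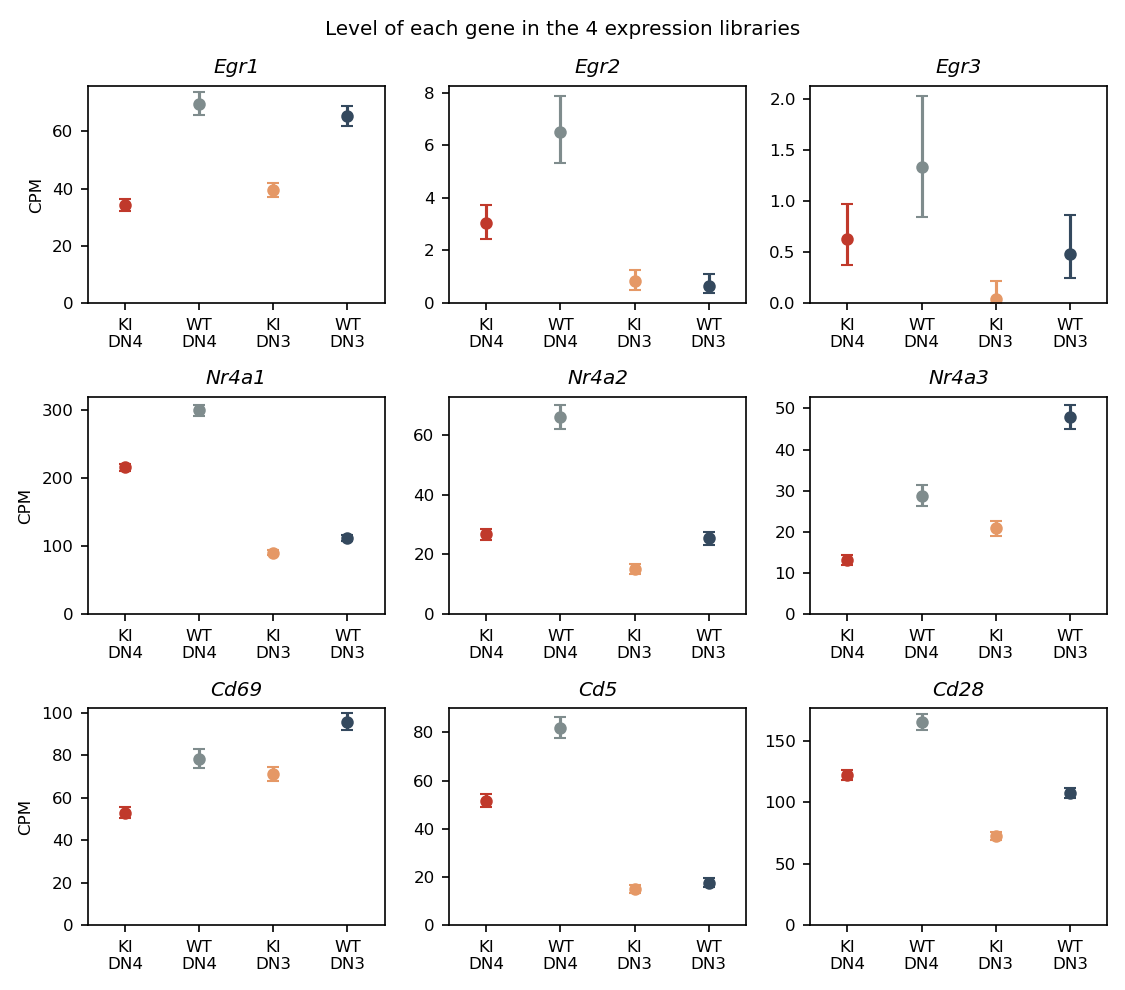
Level of each of the 9 genes (y axis, CPM, each panel with its own scale from 0) in the KI DN4, WT DN4, KI DN3 and WT DN3 libraries; points are the library's summed counts and bars the exact 95% Poisson interval of counting error. Egr1, Nr4a1, Nr4a2, Nr4a3, Cd69, Cd5 and Cd28 are lower in KI than in WT in both sorts, with the smallest gap for Cd5 in DN3 (14.9 and 17.6 CPM).

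Nr4a1, which encodes Nur77, was at 215 CPM in KI DN4 and 299 in WT DN4, and at 89.9 in KI DN3 and 112 in WT DN3. It was higher in both DN4 libraries than in either DN3 library. After thinning, 34.6% (32.7 to 36.5) of KI DN4 and 45.6% (43.0 to 48.2) of WT DN4 cells had a UMI, against 14.9% (13.7 to 16.1) of KI DN3 and 18.2% (16.8 to 19.7) of WT DN3 cells. Among clusters of at least 100 cells it followed the order 919 CPM in cluster 5, 517 in cluster 2, 343 in cluster 7, 136 in cluster 6, 107 in clusters 0 and 1 and 95.1 in clusters 3 and 4. Cluster 7, which is small, had 1257 CPM over the β-selected cycling list, with Top2a highest. It had 810 CPM over the mature αβ list, 591 over the γδ list and 385 over the NK, NKT and innate list. This cluster keeps its number.

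The genotypes parted on Nr4a1 in opposite ways in different DN4 cells. In cluster 5 it was at 1058 CPM in KI and 800 in WT, a log2 ratio of 0.40 (0.30 to 0.51). In clusters 3 and 4 of DN4 it was at 93.6 CPM in KI and 133 in WT (−0.51, −0.61 to −0.41), and in cluster 2 at 492 and 551 (−0.16, −0.25 to −0.08). In DN3 the KI value was the lower in each kind, with log2 ratios of −0.19 in clusters 0 and 1, −0.26 in cluster 6 and −0.25 in clusters 3 and 4. Nr4a1 in cluster 5 was the only member at 20 CPM or more that was higher in KI within a cluster with its interval clear of 0.

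Nr4a2, which encodes Nurr1, was at 26.7 CPM in KI DN4 and 65.8 in WT DN4, and at 15.0 in KI DN3 and 25.3 in WT DN3. WT DN4 stood apart from the other 3 libraries. Cells with a UMI after thinning were 7.66% in KI DN4, 15.2% in WT DN4, 3.29% in KI DN3 and 4.92% in WT DN3. Cluster 5 carried 236 CPM in KI and 349 in WT (−0.56, −0.76 to −0.37), and cluster 2 carried 33.6 and 70.2 (−1.06, −1.35 to −0.78). In clusters 3 and 4 of DN4 it was at 11.6 CPM in KI and 20.3 in WT (−0.81, −1.08 to −0.54). In cluster 6 of DN3 the gap was wider, with 11.2 CPM (31 UMIs) in KI and 32.0 (88 UMIs) in WT (−1.52, −2.16 to −0.91). Nr4a2 was lower in KI in all 6 cluster comparisons, and in clusters 3 and 4 of DN3 both values were below 20 CPM.

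Nr4a3, which encodes Nor1, had another distribution: it was highest in the WT DN3 library. It was at 13.1 CPM in KI DN4 and 28.8 in WT DN4, and at 20.8 in KI DN3 and 47.9 in WT DN3. Both KI values lay below both WT values. In clusters 0 and 1 it was at 33.9 CPM in KI DN3 and 66.5 in WT DN3 (−0.97, −1.14 to −0.80), in cluster 6 at 13.7 and 37.8 (−1.46, −2.04 to −0.92), in cluster 2 at 28.9 in KI DN4 and 56.2 in WT DN4 (−0.96, −1.27 to −0.65), and in cluster 5 at 43.9 and 65.9 (−0.59, −1.06 to −0.12). In clusters 3 and 4 it was under 20 CPM in all 4 libraries. Nr4a2, Nr4a3 and Cd28 had a lower KI value, with the interval clear of 0, in each of the 6 cluster comparisons.

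**Figure D2:**
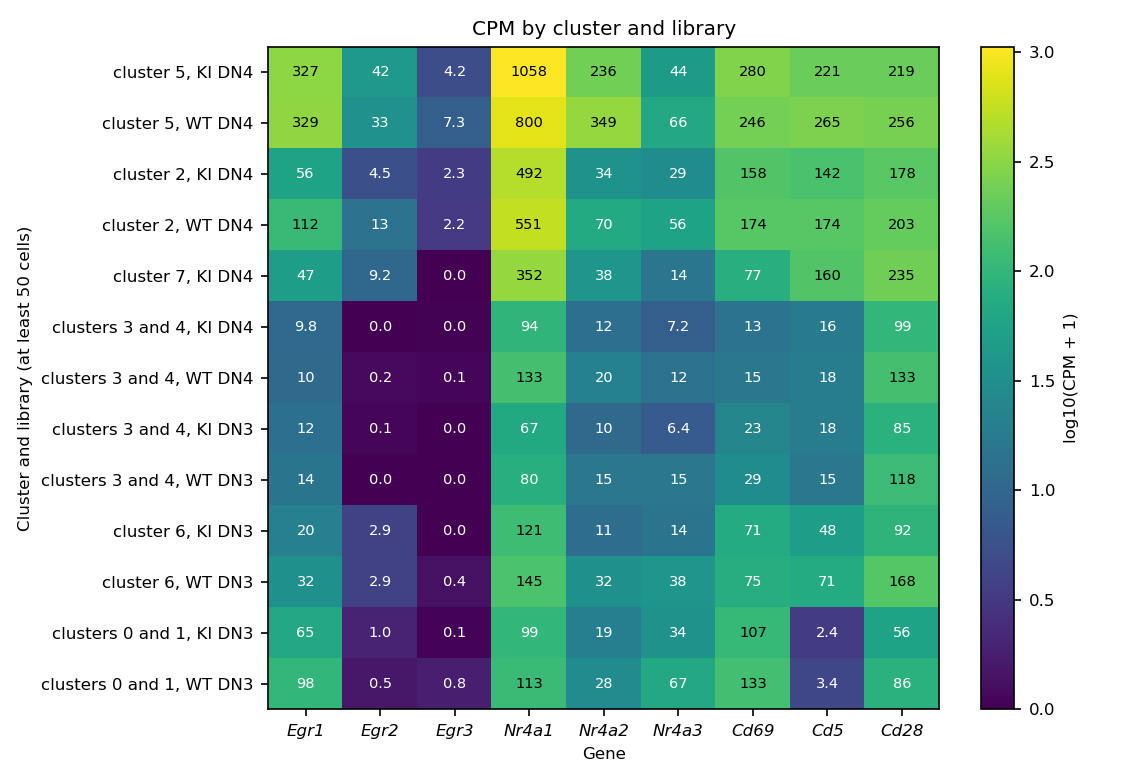
CPM of the 9 genes (columns) in each deposited cluster or pair of clusters by library (rows, groups of at least 50 cells), printed in the cells and coloured by log10(CPM + 1). The highest value is in cluster 5 for every gene except Nr4a3, where clusters 0 and 1 of WT DN3 (66.5 CPM) and cluster 5 of WT DN4 (65.9) are close; clusters 3 and 4 hold little Egr1, Nr4a3 and Cd69, and Cd5 is at 3.43 CPM or below in clusters 0 and 1.

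Cd69 was at 52.7 CPM in KI DN4 and 78.2 in WT DN4, and at 70.9 in KI DN3 and 95.6 in WT DN3. On summed counts it was lower in DN4 than in DN3 within each genotype, a direction that turned with cells weighted alike (0.36 in KI and 0.43 in WT, DN4 over DN3). It was at 262 CPM in cluster 5, 165 in cluster 2, 120 in clusters 0 and 1, 82.9 in cluster 7, 71.3 in cluster 6 and 17.5 in clusters 3 and 4. Where Cd69 was at 20 CPM or more, the interval of the KI to WT ratio included 0 in 3 kinds of cell: 280 CPM in KI and 246 in WT in cluster 5 (0.19, −0.02 to 0.39), 158 and 174 in cluster 2 (−0.14, −0.29 to 0.01), and 70.9 and 75.2 in cluster 6 (−0.08, −0.37 to 0.20). In DN3 it was lower in clusters 0 and 1, at 107 CPM in KI and 133 in WT (−0.31, −0.42 to −0.21), and in clusters 3 and 4, at 22.6 and 28.9 (−0.36, −0.64 to −0.07). Cycling cells of DN4, clusters 3 and 4, had it under 20 CPM, at 13.1 in KI and 15.1 in WT (−0.21, −0.50 to 0.08).

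Cd5 separated the clusters of the DN3 sort most sharply. It was at 51.7 CPM in KI DN4 and 82.0 in WT DN4, and at 14.9 in KI DN3 and 17.6 in WT DN3. Only 0.329% of KI and 0.224% of WT cells of clusters 0 and 1 had a Cd5 UMI after thinning. These were the lowest shares among clusters of at least 100 cells and may be background, which was not measured. In cluster 6 it was at 47.9 CPM in KI DN3 and 71.2 in WT DN3, which is 4.32 higher on the log2 scale than in clusters 0 and 1 in KI (3.74 to 4.95) and 4.37 in WT (3.90 to 4.88). In clusters 3 and 4 of DN3 it was back at 18.3 CPM in KI and 15.1 in WT. The highest levels were in cluster 5, at 221 CPM in KI and 265 in WT (−0.27, −0.48 to −0.05), and in cluster 2, at 142 and 174 (−0.29, −0.45 to −0.14). The clusters were made from these same cells, so the steps between them are a description.

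Cd28 was at 122 CPM in KI DN4 and 166 in WT DN4, and at 72.4 in KI DN3 and 107 in WT DN3. It was the member spread most evenly over the cells, at 55.8 to 256 CPM in the rows of the heat map. It was also lower in KI in all 6 cluster comparisons with intervals clear of 0, from −0.86 (−1.09 to −0.64) in cluster 6, at 92.2 CPM in KI DN3 and 168 in WT DN3, to −0.19 (−0.33 to −0.05) in cluster 2, at 178 in KI DN4 and 203 in WT DN4. In the cycling clusters 3 and 4 it was at 98.8 CPM in KI DN4 and 133 in WT DN4, and at 84.6 in KI DN3 and 118 in WT DN3.

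Set side by side, the members at 20 CPM or more were lower in KI than in WT in both sorts, while Egr2, at under 1 CPM in DN3, had a ratio of 0.31 (−0.71 to 1.37) there. In DN4 the 7 members at 20 CPM or more in either library, all but Egr2 and Egr3, were lower with intervals below 0, as 37.9% of the 5592 genes at that level were, and 3 of the 7 were at least 2-fold lower, as 0.59% of those genes were. Those 3 were Egr1 at −1.02 (−1.15 to −0.90), Nr4a2 at −1.30 (−1.44 to −1.17) and Nr4a3 at −1.14 (−1.33 to −0.94). The median log2 ratio of the 7 was −0.67, against −0.05 for all genes. In DN3, 6 of 6 members at 20 CPM or more were lower with intervals below 0, as 27.5% of 5797 genes were, and 1 of 6, Nr4a3 at −1.20 (−1.36 to −1.05), was at least 2-fold lower, as 0.552% were. The median of the 6 was −0.65, against 0.00 for all genes.

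In DN4 the count of members past 2-fold, and the size of several gaps, changed with the cells counted. With the cluster make-up of the 2 libraries held equal, none of the 7 was 2-fold apart: Egr1 was at −0.36, Nr4a1 at 0.01, Nr4a2 at −0.72, Nr4a3 at −0.82, Cd69 at −0.03, Cd5 at −0.26 and Cd28 at −0.28. With clusters 2, 5 and 7 left out, the count was likewise 0 of the 3 members still at 20 CPM. Of the DN4 libraries, cluster 5 gave 44.4% of Egr1 UMIs in KI DN4 and 47.7% in WT DN4, from 12.7% and 21.9% of the cells. Clusters 3 and 4 gave 21.3% of them in KI and 9.19% in WT, although they held 74.8% and 63.6% of all UMIs. In DN3, holding the make-up equal with clusters 0 and 1 joined, a setting chosen after seeing the data, left Egr1 at −0.59, Nr4a2 at −0.60, Nr4a3 at −1.01 and Cd28 at −0.63, and the count at 1. With clusters 0 and 1 apart, which leaves 109 WT cells in cluster 0 and 54 KI cells in cluster 1, the count was 0, and Cd69 was at 0.02.

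**Figure D3:**
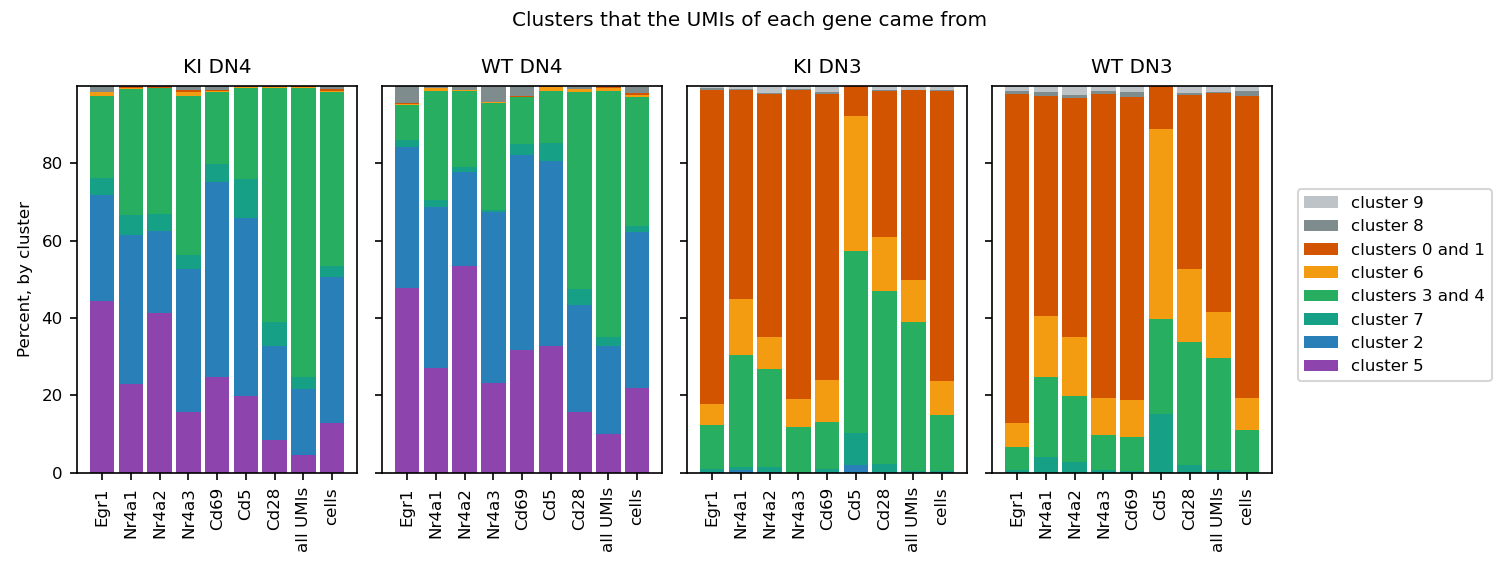
Share of the UMIs of 7 members, of all UMIs and of the cells (y axis, percent) that came from each deposited cluster or pair of clusters, in the KI DN4, WT DN4, KI DN3 and WT DN3 libraries. In DN4 clusters 5 and 2 gave most UMIs of Egr1, Nr4a1, Nr4a2, Nr4a3, Cd69 and Cd5 although they held 4.65% and 16.8% of all UMIs in KI and 10.1% and 22.7% in WT, and in DN3 clusters 0 and 1 gave 81.1% of Egr1 UMIs in KI and 85.3% in WT.

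Within clusters the counts were 0 or 2. At least 2-fold lower in KI were 2 of 7 in cluster 2 of DN4 (Egr1 and Nr4a2; 0.642% of all genes) and 2 of 7 in cluster 6 of DN3 (Nr4a2 and Nr4a3; 0.588% of all genes). None was 2-fold apart in clusters 0 and 1 of DN3, in clusters 3 and 4 of either sort or in cluster 5, where 0.62%, 0.486% (DN4), 0.702% (DN3) and 1.85% of all genes were. Intervals below 0 were found for 6 of 6 members in clusters 0 and 1 (22.9% of all genes), 6 of 7 in cluster 6 (9.68%), 3 of 3 in clusters 3 and 4 of DN3 (13.7%), 3 of 3 in clusters 3 and 4 of DN4 (25.4%), 6 of 7 in cluster 2 (17.8%) and 4 of 8 in cluster 5 (11.1%). In cluster 5 the 1 member above 0, as 6.55% of all genes were, was Nr4a1, and Egr1, Egr2 and Cd69 had intervals that included 0.

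**Figure D4:**
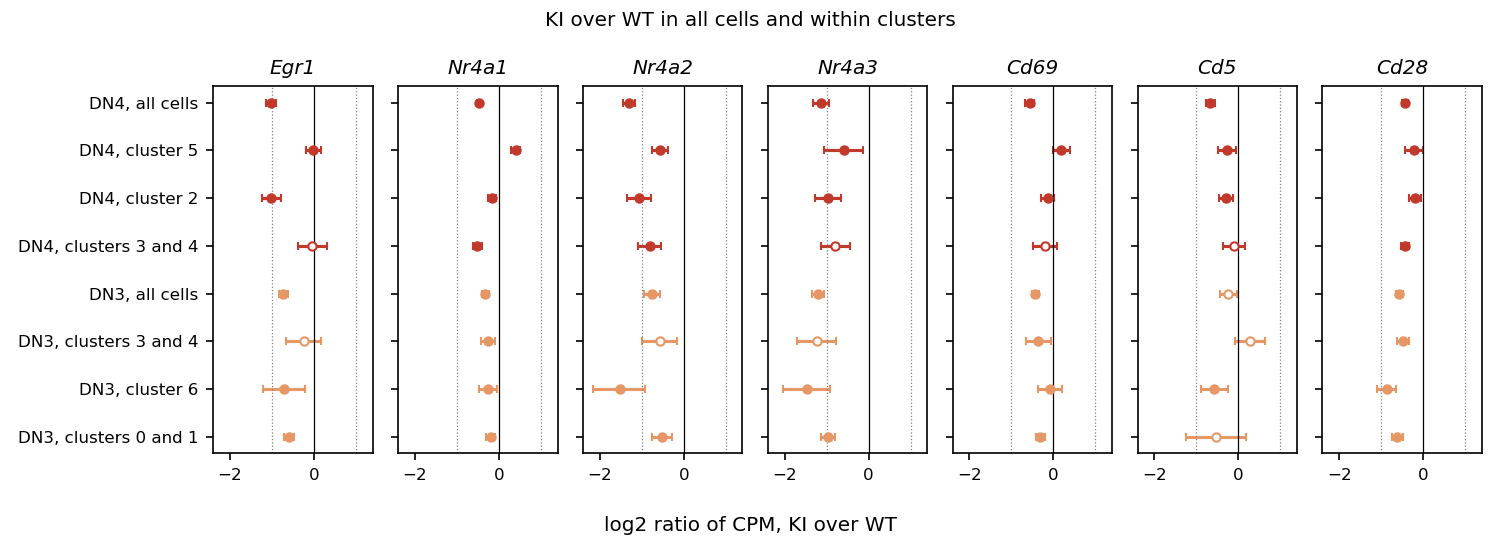
Log2 ratio of CPM, KI over WT (x axis), for 7 members in all cells and within clusters of the DN4 (red) and DN3 (orange) sorts; bars are exact 95% intervals of counting error, open points are under 20 CPM in both libraries, and dotted lines mark 2-fold. Nr4a2 and Nr4a3 lie left of 0 in every row, and Nr4a1 in cluster 5 lies right of it at 0.40.

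Immediate early and heat shock genes that cell handling can raise had a lower summed level in KI, where the members were lower too. Summed over 20 such genes, the level was 6262 CPM in KI DN4 and 8378 in WT DN4, and 7981 in KI DN3 and 10746 in WT DN3. This sum was lower in KI in each kind of cell compared between genotypes. It ranged from 5978 to 10080 CPM in KI and from 7605 to 11611 in WT. The most abundant genes weigh most in such a sum, so list medians are given too. Of those at 20 CPM, 13 of 15 had intervals below 0 in DN4 and 1 above, and 9 of 16 below and 5 above in DN3, where 37.9% and 27.5% of all genes were below. The median log2 ratio of the list was −0.47 in DN4 and −0.10 in DN3, against −0.05 and 0.00 for all genes. Within kinds of cell it ran from −0.34 in clusters 3 and 4 of DN3 to −0.004 in clusters 0 and 1. In clusters 0 and 1 of DN3, 8 of 17 were below 0 (22.9% of all genes) and 8 above. The median of all genes was −0.005 there, so the list as a set was not lower in KI. Its sums there were 8448 CPM in KI and 11441 in WT, of which Junb alone gave 2399 and 4616. Junb, an AP-1 gene, was at 623 CPM in KI DN4 and 1525 in WT DN4 (−1.29), and at 1495 in KI DN3 and 3192 in WT DN3 (−1.09). Fos, its partner, was at 147 and 271 in DN4 (−0.89) and at 167 and 279 in DN3 (−0.74). Jun, by contrast, was at 130 CPM in KI DN4 and 123 in WT DN4, and at 510 in KI DN3 and 475 in WT DN3, and the heat shock gene Hspa1a was near 0 in all 4. The part of cell handling in the lower KI values was not tested.

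The other genes of the pathway differed less. Of 21 feedback and target genes of the same signals, 13 were at 20 CPM in DN4 and all 13 were lower in KI with intervals below 0 (37.9% of all genes), with a median of −0.50; Gadd45b, a stress and signal response gene, was lowest at 10.3 CPM in KI and 21.4 in WT (−1.06), followed by the phosphatase gene Dusp5 (−0.81), the pro-apoptotic Bcl2l11 (−0.72) and the checkpoint receptor gene Pdcd1 (−0.67). In DN3, 6 of 8 were lower (27.5% of all genes) and 2 higher, with a median of −0.14; Pdcd1 was lowest (−0.36) and the phosphatase gene Dusp2 was higher, at 64.6 CPM in KI and 52.8 in WT (0.29). Within clusters 0 and 1 the median of this list was 0.07, with 1 of 8 lower (22.9% of all genes) and 3 higher. In cluster 2 it was −0.11, with 5 of 15 lower (17.8% of all genes) and 3 higher. Counts of higher genes in this list and in those that follow have no share of all genes beside them.

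Genes that carry the signal from the receptor showed smaller differences still. Of the 20, 17 of 19 at 20 CPM were lower in KI DN4 (37.9% of all genes), with a median of −0.26, and in KI DN3 13 of 17 were lower (27.5%) and 2 higher, with a median of −0.09. Cd2, an adhesion and costimulatory receptor gene, was at −0.75, the adaptor gene Grap2 at −0.49 and Rasgrp1, which encodes a Ras activator, at −0.44 in DN4. In DN3, Themis, a gene of thymocyte receptor signalling, was at −0.48, Grap2 at −0.42 and the adaptor gene Lcp2 at −0.32. Of the kinases and factors that act on the Egr and Nr4a genes, 8 of 11 at 20 CPM were lower in DN4 (37.9% of all genes; median −0.23). In DN3 it was 4 of 11, a share near that of all genes (27.5%), with a median of −0.05; Mef2d, whose protein acts on Nr4a1 in calcium signals, was lower in both, at −0.45 and −0.49.

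Between the stages, the members split. In KI, 2 of 7 members at 20 CPM were at least 2-fold higher in DN4 than in DN3, as 2.68% of 5822 genes were, and in WT 3 of 7, as 3.82% of 5987 genes were. Those were Nr4a1 (1.26 in KI, 1.41 in WT) and Cd5 (1.79 in KI, 2.22 in WT) in both, and Nr4a2 (0.83 in KI, 1.38 in WT) in WT. Cd28 was higher by less, at 0.76 in KI and 0.62 in WT. Nr4a3 (−0.67 in KI, −0.74 in WT) and Cd69 (−0.43 in KI, −0.29 in WT) were lower in DN4 on summed counts, and Egr1 was at −0.21 (−0.33 to −0.08) in KI and 0.09 (−0.02 to 0.20) in WT. Several of these directions turned with the cells counted. With clusters 2, 5 and 7 left out, Nr4a2 was at −0.35 in KI and −0.22 in WT, and Egr1 at −1.86 in KI and −2.12 in WT. With the cluster make-up held equal, Nr4a3 was at 0.12 in KI and 0.94 in WT, and Cd69 at −0.92 in KI and 0.55 in WT. Outside clusters 3 and 4, no cluster found in both WT sorts held more than 25 WT DN4 cells. The 2 WT values above 0 thus rest on few cells. In clusters 3 and 4 of WT, Cd69 was at −0.93 and Nr4a3, under 20 CPM, at −0.28 (−0.67 to 0.11). In cells of the deposited phase G1, Cd69 was at 0.79 in KI and 0.64 in WT, Nr4a3 at 0.03 in KI and −0.05 in WT, and Egr1 in KI at 0.87. Nr4a1, Cd5 and Cd28 were higher in DN4 under all 9 alternatives in both genotypes. Cd5 was not clearly so within clusters 3 and 4 alone, where it was under 20 CPM. Its ratio there was −0.17 (−0.43 to 0.10) in KI and 0.21 (−0.15 to 0.58) in WT. Within clusters 3 and 4, the kind of cell that both sorts held in number, Nr4a1 was higher in DN4 (0.47, 0.35 to 0.60 in KI; 0.73, 0.58 to 0.88 in WT) and Cd69 lower (−0.79, −1.04 to −0.53 in KI; −0.93, −1.25 to −0.62 in WT), with no member 2-fold apart, as 1.46% of all genes in KI and 1.02% in WT were.

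The receptor libraries allowed the members to be read in DN3 cells with and without a productive TRB contig. Lack of a contig does not show that a cell lacks a β chain. Even in clusters 3 and 4 of DN3, 83.7% of KI and 85.1% of WT cells had a contig. Their median was 20545.5 UMIs with and 15424 without in KI, and 21671 and 16287 in WT. Of clusters 0 and 1, 118 of 2469 KI cells and 155 of 2255 WT cells had a productive TRB contig. Cd28 was at 95.6 CPM with and 53.6 without one in KI, and at 160 and 79.5 in WT, log2 ratios of 0.84 (0.44 to 1.21) and 1.01 (0.75 to 1.25). Nr4a1 was at 149 CPM with and 96.1 without in KI (0.63, 0.32 to 0.92) and at 161 and 109 in WT (0.56, 0.31 to 0.80). Both genes were thus higher with a TRB contig in each genotype. Nr4a2 was at 0.66 (−0.08 to 1.32) in KI and 0.57 (0.04 to 1.05) in WT. Cd5 remained under 20 CPM but was at 8.83 CPM with (6 UMIs) and 2.02 without in KI, and at 15.6 (15 UMIs) and 2.45 in WT. After thinning too few cells had a Cd5 UMI for shares to be read, 0 of 116 with a contig in KI (exact interval up to 3.13%) and 1 of 155 in WT. Egr1 was not higher: it was at 47.1 CPM with and 66.3 without in KI (−0.49, −1.05 to 0.02) and at 93.5 and 98.8 in WT (−0.08, −0.41 to 0.23). Cd69 and Nr4a3 had intervals that included 0 in both.

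By count, none of 6 members in KI and 1 of 6 in WT, Cd28, was at least 2-fold higher with a TRB contig in clusters 0 and 1, as 0.666% and 0.633% of all genes were. Intervals above 0 were found for 2 of 6 members in KI (5.37% of all genes) and 3 of 6 in WT (6.78%). Depth was close on both sides, with medians of 5285 UMIs with and 4836 without in KI, and 5689 and 5424 in WT. The 7 pre-selection markers summed to 1384 CPM with and 1936 without in KI, and to 1398 and 1993 in WT, so the cells with a contig differed from the rest in stage markers too; the part of this in the result was not tested.

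In cluster 6, where 198 of 290 KI cells and 173 of 243 WT cells had a TRB contig, Cd5 ran the other way. It was at 36.6 CPM with and 70.7 without in KI (−0.95, −1.46 to −0.44), and at 49.5 and 129 in WT (−1.38, −1.80 to −0.96). These intervals take each UMI as independent and may be too narrow. Among cluster 6 cells of the deposited phase S, 113 Cd5 UMIs came from 45 of 221 cells in KI. In WT 148 came from 51 of 167. The thinned share of cells with a Cd5 UMI showed no gap beyond counting error: it was 6.57% with and 6.52% without in KI, and 10.5% and 15.7% in WT, with overlapping exact intervals in each. Nr4a1 was at 116 with and 133 without in KI (−0.20, −0.52 to 0.14), and at 131 and 181 in WT (−0.46, −0.76 to −0.15). None of 5 members in KI and 1 of 7 in WT, Cd5, was at least 2-fold lower, as 1.78% and 1.83% of all genes were. The 7 γδ markers summed to 549 CPM with and 708 without in KI, and to 698 and 732 in WT. The 7 pre-selection markers summed to 597 with and 943 without in KI, and to 637 and 930 in WT, and the NK, NKT and innate list to 231 and 195 in KI, and to 211 and 314 in WT. The part of these lists in the result was not tested.

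**Figure D5:**
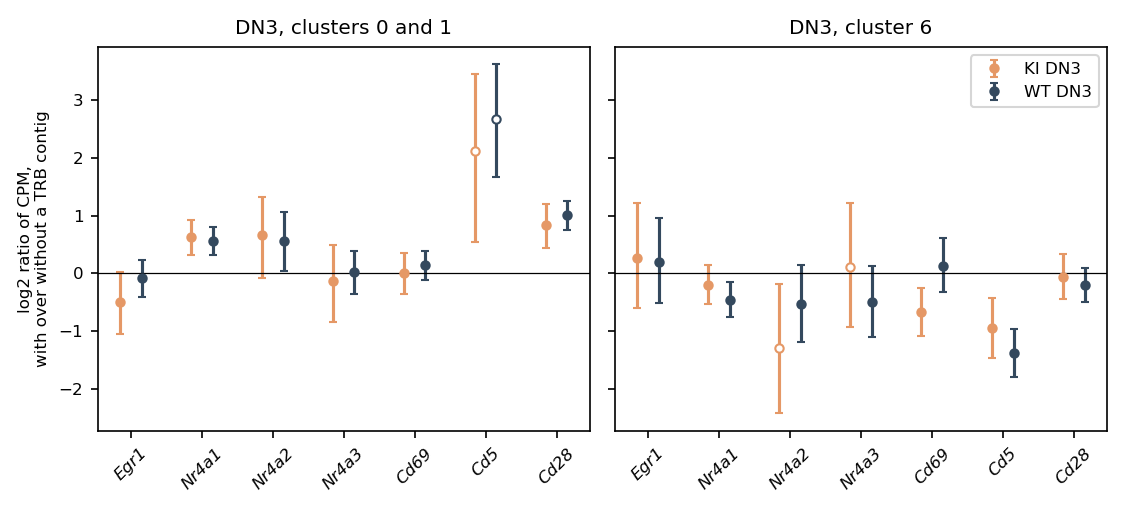
Log2 ratio of CPM in DN3 cells with over without a productive TRB contig (y axis) for 7 members in clusters 0 and 1 (left) and in cluster 6 (right), KI orange and WT dark; bars are exact 95% intervals of counting error and open points are under 20 CPM on both sides. In clusters 0 and 1 Cd28 and Nr4a1 lie above 0 in both genotypes (Cd28 0.84 in KI and 1.01 in WT), and in cluster 6 Cd5 lies below 0 in both (−0.95 in KI and −1.38 in WT).

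Within a kind of cell, Egr1 and Cd69 tended to be read in the same cells. In cluster 5, after thinning, 55.4% (43.4 to 67.0) of the 74 KI cells with an Egr1 UMI also had a Cd69 UMI, against 28.6% (22.7 to 35.2) of the 213 without. In WT these were 56.1% (45.7 to 66.1) of 98 and 20.8% (15.5 to 26.8) of 212. In cluster 2 the shares were 44.6% (34.2 to 55.3) of 92 cells with and 18.3% (14.9 to 22.0) of 493 without in WT, but 33.7% (24.0 to 44.5) of 89 and 26.3% (23.3 to 29.4) of 849 in KI, where the intervals overlap. They were close in clusters 0 and 1, at 18.3% with and 17.2% without in KI, and 24.5% and 19.5% in WT. Egr1 and Nr4a1 did not part in this way in cluster 5: 77.0% with and 67.1% without in KI, and 61.2% and 59.9% in WT. Cd5 and Cd28 went together in cluster 2, where 33.9% (26.8 to 41.6) of KI cells with Cd5 had Cd28, against 19.2% (16.5 to 22.2) of those without, and in WT 38.8% (30.5 to 47.6) against 19.1% (15.5 to 23.0). In cluster 5 the Cd28 shares with and without Cd5 were 34.3% and 25.9% in KI, and 44.1% and 30.7% in WT. The intervals overlapped in each. Cells of 1 library share its depth and free RNA, and they are not replicates.

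Across 16 sums of at least 100 cells, each 1 cluster in 1 library, the members fell into patterns. As Pearson's r of log2(CPM + 10), which is descriptive because the sums share libraries and depth, Egr1 went with Cd69 (0.94) and Nr4a3 (0.89), Egr2 with Nr4a2 (0.96), and Cd5 with Cd28 (0.91), while Nr4a3 and Cd5 had 0.40 and Cd69 and Cd28 0.38. Of 7621 genes at 20 CPM in at least 1 sum, those most like Egr1 were Tsc22d1, Rnf122 and Ipcef1 (0.98 each). Most like Nr4a1 were Dnajc3, Cotl1 and Gimap8 (0.97 to 0.98), most like Nr4a2 were Phtf2, Hvcn1 and Selenbp1 (0.97 each), and most like Nr4a3 were Fosl2, Wnk1 and Tor1aip2 (0.95 to 0.97). Cd69 was closest to Zyx, S100a11 and H2-D1 (0.99 each after rounding), Cd5 to Pdcd1, Cd6 and Lcp1 (0.97 to 0.99), Cd28 to Ago2, Ly9 and Pdcd1 (0.91 to 0.94), and Egr2 to Sgms1, Spock2 and Susd2 (0.99 each). Egr2 was past 20 CPM in the 2 sums of cluster 5 alone, on which that likeness rests: by Spearman's rho the 3 genes ranked 148, 675 and 152. By the same measure the 3 genes of Egr1 ranked 21, 65 and 29, and those of Nr4a2 ranked 186, 29 and 59. Lcp1 ranked 32 for Cd5 and Pdcd1 40 for Cd28. The other genes named here ranked 1 to 7. Egr3 was below 20 CPM in all 16 sums, so its nearest genes are not named.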

How the data were processed

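Single-cell expression was read in 4 libraries and T cell receptors in 4, 1 of each per group. The matrix the authors deposited holds UMI counts per gene and cell as whole numbers, with their cluster and phase calls, and the deposited receptor tables hold contigs with UMI counts, per the file headers. Cell Ranger 3.1.0 and 6.0.1 and the build mm10 are named in the submitters' processing notes, with no role stated. How cells were filtered and clustered is not given in the sources used here.

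No cell was removed: 10237 cells with 717 to 46885 UMIs were used. Scrublet (scanpy 1.11.5) called 73 cells (0.713%) doublets, left in, and in the DN3 libraries so few that it may have missed some. Counts were summed per library and kind of cell and scaled to CPM. Ratios have exact conditional binomial intervals, levels exact Poisson intervals and shares exact binomial intervals, all at 95% and for counting error only. A gene counted when it had 20 CPM or more on either side and was at least 2-fold apart. Shares of cells with a UMI were taken after thinning to 2000 UMIs, leaving out 97 KI DN4, 51 WT DN4, 43 KI DN3 and 39 WT DN3 cells. Cells were tied to productive TRB contigs by barcode. The script was tested on simulated counts with 200 changed genes.

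All 9 members were named throughout, with the 3 genes of highest pattern correlation for each and up to 4 genes with the largest absolute ratio per list and comparison, except 1 gene that is not reported here. The members and lists were chosen with earlier results of these data known. Alternatives were TMM (edgeR 4.0.16) and median-of-ratios scaling (DESeq2 1.42.0), both used for scaling alone in R 4.3.3, cells weighted alike, doublets or shallow cells removed, clusters left out, a fixed cluster make-up, G1 cells, other floors and folds, and other thinning depths. Python 3.11.15 with numpy 2.4.6, scipy 1.17.1, pandas 2.3.3 and matplotlib 3.10.9 was used. No column of other samples was present.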

Additional observations from a re-analysis of the deposited data

Results flagged for a closer look

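Nr4a1 differed between DN4 clusters in the direction of the KI to WT ratio: it was −0.51 (log2) in clusters 3 and 4 and −0.16 in cluster 2, against 0.40 in cluster 5, each with its counting interval clear of 0. The difference between clusters was not tested, because each genotype had 1 library.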

How the results depend on the processing

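Members at least 2-fold apart between KI and WT numbered 3 in DN4. The count was 0 with clusters 2, 5 and 7 left out and 0 with the cluster make-up held fixed, with clusters 0 and 1 apart or, chosen after seeing the data, joined. It was 1 in cells of the deposited phase G1 and 5 with no floor. In DN3 the count was 1; it was 0 with the make-up fixed and clusters 0 and 1 apart, 0 in G1 cells, 2 with no floor and 3 at 1.5-fold. Between DN4 and DN3 the KI count was 2; it was 0 with the make-up fixed in either way, and 4 with cells weighted alike, 4 in G1 cells, 4 with no floor and 5 at 1.5-fold. The WT count was 3, and 5 in G1 cells, 5 with no floor and 5 at 1.5-fold. Nr4a2 in WT, 1.38 higher in DN4 on the log2 scale, was at −0.22 with clusters 2, 5 and 7 left out. The cause was not tested. Over 9 alternatives the KI to WT ratio in DN4 ranged from −1.03 to −0.36 for Egr1, −1.30 to −0.72 for Nr4a2, −1.17 to −0.82 for Nr4a3 and −0.51 to 0.01 for Nr4a1. In DN3 that of Nr4a3 ranged from −1.21 to −0.45. All 36 ratios moved by less than their counting interval when doublets or cells under 2000 UMIs were removed. TMM moved the median of all genes in DN4, KI over WT, to 0.07, against −0.05 on library totals. Shares of cells with a UMI depended on depth: 35 of 36 moved without thinning. No paired analysis was possible because each group had 1 library and the labels give no shared replicate numbers.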
